A study of Arabidopsis thaliana with 9 samples.

Results

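UGT genes encode family 1 glycosyltransferases, enzymes that pass a sugar from a UDP-sugar to a small molecule such as a hormone, a phenolic or a glucosinolate precursor. The examined set holds every Arabidopsis gene whose symbol is UGT followed by a number, with the UGT73B group left out. Each gene was read by the probe set that names only that gene, and by the brightest over the 9 arrays where there were several. In this way 46 genes were measured, of 53 with such a symbol in the reference gene table and of 16550 genes with a single-gene probe set. No single-gene probe set stands for UGT74E2, UGT74F2, UGT75B1, UGT75B2, UGT84A1, UGT84A2 or UGT85A1, and these 7 were not analysed here. Enzymes of the same family that the gene table lists under another symbol fall outside the set.

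Sugar conjugation commonly inactivates a hormone or makes a compound soluble enough to be stored in the vacuole, and beta-glucosidases can take the sugar off again. The number in a UGT name marks a sequence family and the letter a subfamily within it. Members of one subfamily often lie side by side on a chromosome and can differ in substrate.

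The samples are cotyledons of 6-day-old Col-0 seedlings, grown in liquid medium under continuous light, with no mutant or transgene named in the labels. Leaf tissue was kept for 48 hours in VISUAL medium, a culture in which leaf cells become vascular cells. It held the auxin 2,4-D at 1.25 mg per litre, the cytokinin kinetin at 0.25 mg per litre and bikinin, an inhibitor of GSK3-type kinases, at 10 µM. Samples were taken 96 hours after companion cell induction, and such cells stand beside the phloem sieve elements and serve them. The labels name 3 groups with 3 arrays each, numbered 3, 4 and 5: CC-S, where induction of companion cells is strong, CC-M, where it is moderate, and VISUAL, where it does not occur. They word the culture alike for all 9 samples, and the sources used here do not give how the media of the groups differ. Whether the replicates of a group are separate cultures is not stated, and p-values then speak only of the spread among these 9 samples, part or all of which could be technical. The culture is whole tissue, in which fewer cells of a type and less RNA per cell cannot be told apart.

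All values are deposited log2 signals of one-colour arrays, with array medians from 4.71 to 4.90. A log2 change is a difference of mean log2 signals, the group named first minus the other. A call is a limma adjusted p under 0.05, taken over all 38408 probe sets. Of the markers chosen for cell types, the phloem parenchyma marker SWEET11, which encodes a sucrose exporter, rose by 2.33 in CC-S (adjusted p = 0.0101), and its CC-M arrays overlapped those of VISUAL through VISUAL replicate 4. Of 3 measured xylem genes, IRX15 and IRX10 fell in both inductions, and the summed linear signal of the 3 was 2062 to 2969 in VISUAL, 1002 to 1754 in CC-M and 996 to 1641 in CC-S. Of 8 genes listed for companion cells only SWEET13, of the same gene family as SWEET11, was measured. Its VISUAL mean was 2.76 ± 0.46 (SD, n = 3, as for all means below), with no call. SWEET13 was dim, with 18.4% of probe sets at or below its mean signal, and its specificity for companion cells was not tested. The companion cell content of the groups can therefore not be read from it. No sieve element, procambium or epidermis marker was measured. None of the 2 mesophyll and 3 guard cell markers was called, with summed signals of 847 to 1132 and 198 to 254 in VISUAL against 974 to 1061 and 167 to 187 in CC-S. The part of these shifts in the UGT results was not tested. VISUAL replicate 4 had the highest value of the 3 VISUAL arrays for 27 of the 46 UGT genes, against 9 for replicate 3 and 10 for replicate 5.

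Between CC-S and VISUAL, 11 of the 46 UGT genes were called, 5 higher and 6 lower. Rises were led by UGT85A2, at 3.49-fold, and included the glucosinolate gene UGT74B1, the cytokinin gene UGT76C2 and the abscisic acid gene UGT71C5. Falls were led by UGT76B1, whose enzyme conjugates salicylic acid and related defence signals, at 3.74-fold, and next came UGT73D1, at 2.23-fold. The other falls were in UGT74F1 and UGT76D1, which act on salicylic acid and its hydroxylated products, and in UGT73C6 and UGT74D1. Between CC-M and VISUAL 7 were called, 3 higher and 4 lower, and 5 genes were called in both comparisons: UGT85A2, UGT74B1, UGT71C5, UGT74F1 and UGT73D1. The share of all genes called in both was not computed. Both comparisons use the same VISUAL arrays, so this overlap is not in itself a result about the set. The called share was 23.9% in CC-S, where 20.2% of all genes with a single-gene probe set and 19.2% of all probe sets were called, and 15.2% in CC-M, where 12% of genes and 11.6% of probe sets were. These shares lie near the background, so the number of called UGT genes is not in itself a result about the set. Over all genes 10.2% were higher and 10% lower in CC-S, and 6.31% higher and 5.66% lower in CC-M.

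The median log2 change of the 46 genes was -0.02 in CC-S and 0.05 in CC-M, against -0.005 and -0.011 over all genes. The median size of the change, without its sign, was 0.23 and 0.23, against 0.20 and 0.17 over all genes. Calls with a change of at least 2-fold numbered 6 in CC-S (13.0% of the genes, with 6.63% over all genes) and 3 in CC-M (6.52%, with 3.53% over all genes). The CC-S and VISUAL arrays did not overlap for 18 UGT genes (39.1%, with 34.7% over all genes), and neither did the CC-M and VISUAL arrays for 18 (28.7% over all genes). When the test asked for a change beyond 1.5-fold, UGT85A2 and UGT76B1 stayed called in CC-S and UGT85A2 in CC-M. The plot of all 46 log2 changes shows the spread of sizes and both directions within several families.

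**Figure D1:**
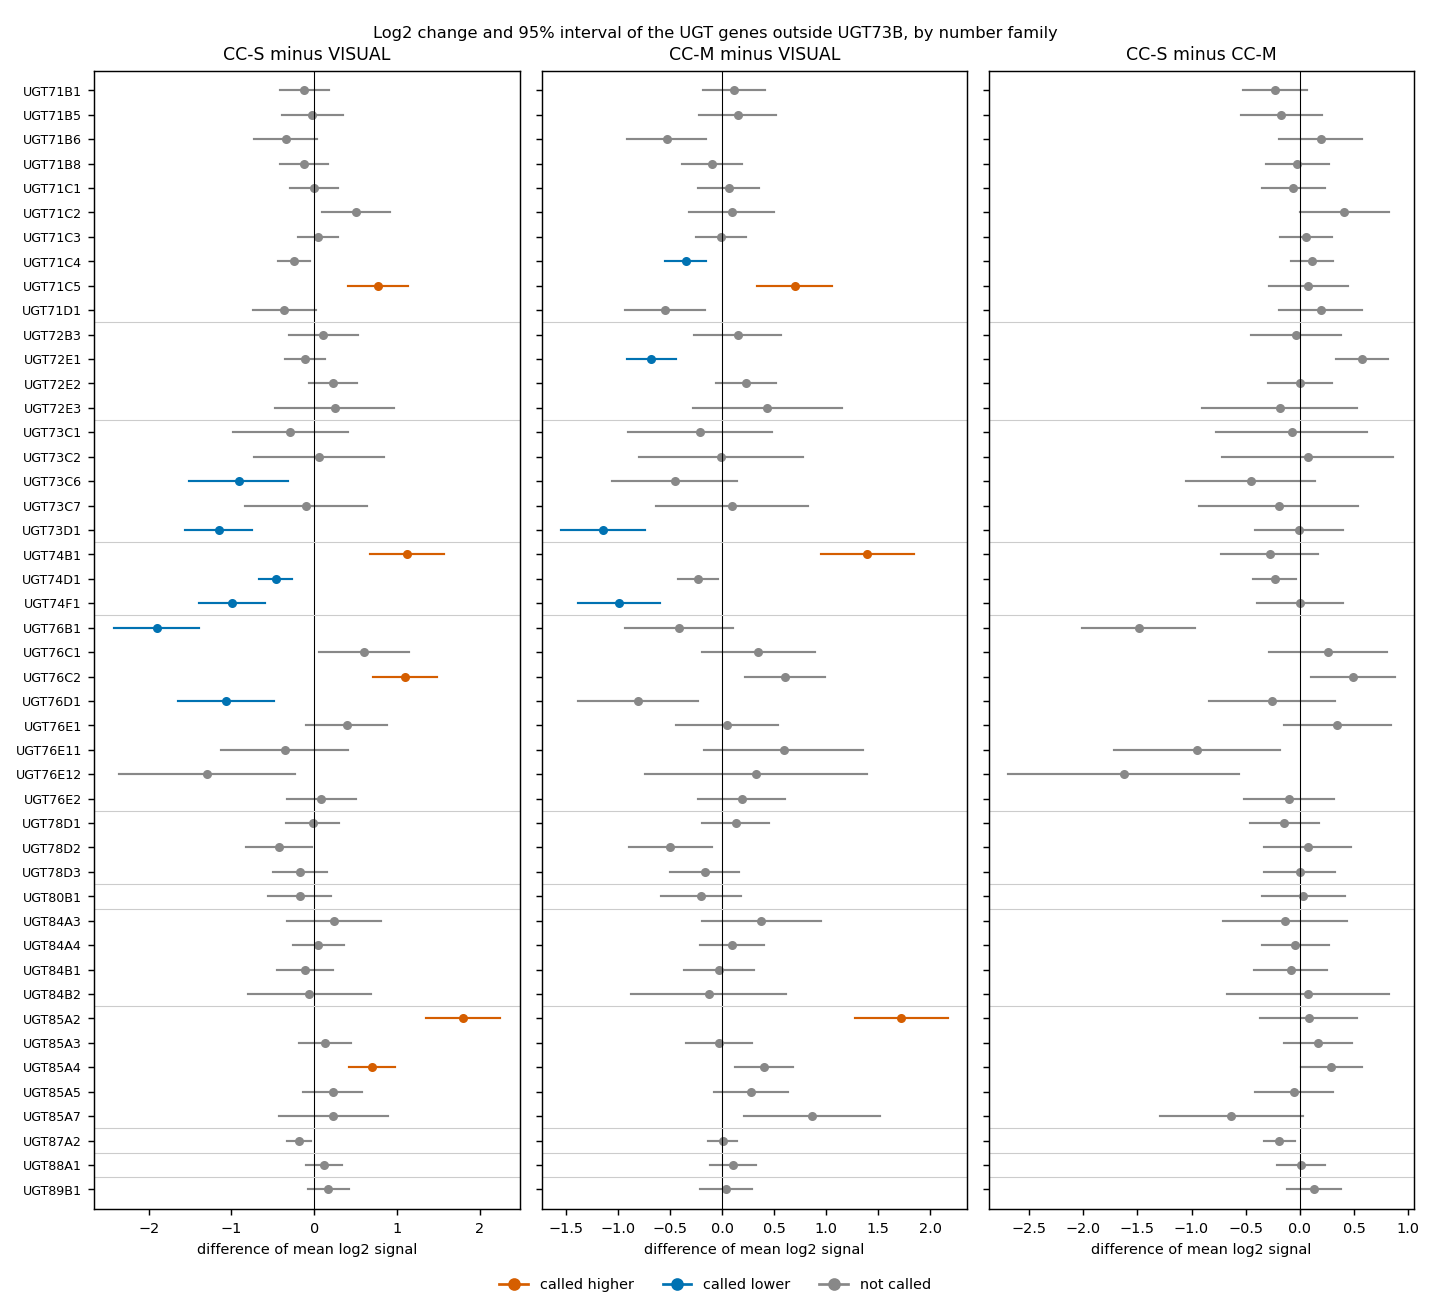
Log2 change (difference of mean log2 signal, horizontal axis, scaled separately in each panel) of each of the 46 UGT genes for the 3 comparisons, with 95% intervals from the limma fit; thin lines part the number families and colour marks the call. UGT85A2 stands farthest to the right at 1.80 and 1.72 against VISUAL, UGT76B1 farthest to the left at -1.90 in CC-S, and no gene is called between CC-S and CC-M.

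UGT85A2 belongs to the UGT85A subfamily, which also holds a cytokinin O-glucosyltransferase that was not measured. Its log2 signals were 7.89, 8.72 and 8.34 in VISUAL, 9.93, 10.26 and 9.93 in CC-M and 10.23, 10.20 and 9.93 in CC-S. Every CC-M and CC-S array lay above every VISUAL array, and the induced groups overlapped each other. The log2 change was 1.80 in CC-S (SE 0.20, limma adjusted p = 0.000448) and 1.72 in CC-M (adjusted p = 0.00109). UGT85A4, the other called gene of this subfamily, had log2 signals of 4.81, 4.61 and 4.52 in VISUAL, 4.96, 5.05 and 5.14 in CC-M and 5.22, 5.35 and 5.44 in CC-S. The 3 groups were fully separate, in the order VISUAL, CC-M, CC-S, and UGT85A4 rose by 0.69 in CC-S (adjusted p = 0.00469) with a change of 0.40 in CC-M that was not called (adjusted p = 0.0712).

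UGT74B1 makes the sulfur-linked glucose of the glucosinolate core, the defence compounds of the cabbage order. Log2 signals of UGT74B1 were 5.19, 5.95 and 5.82 in VISUAL, 7.23, 6.85 and 7.08 in CC-M and 6.90, 6.71 and 6.71 in CC-S. All induced arrays exceeded all VISUAL arrays, and VISUAL replicate 3 was the lowest. UGT74B1 rose 2.17-fold in CC-S (log2 change 1.12, adjusted p = 0.0046) and 2.63-fold in CC-M (log2 change 1.40, adjusted p = 0.00296). UGT76C2 attaches glucose to ring nitrogens of cytokinins, which inactivates them. For UGT76C2 the log2 signals were 3.25, 3.61 and 3.13 in VISUAL, 3.92, 3.88 and 4.01 in CC-M and 4.58, 4.51 and 4.18 in CC-S. The groups were again separate in the order VISUAL, CC-M, CC-S, with CC-S replicate 5 the lowest of its group. UGT76C2 rose 2.14-fold in CC-S (adjusted p = 0.00247). In CC-M its log2 change was 0.61 (adjusted p = 0.0532), called without VISUAL replicate 4 (0.0262) or CC-S replicate 5 (0.0468), without an intensity trend (0.047) and with weighted arrays (0.0478).

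UGT71C5 forms the glucose ester of abscisic acid, a storage form of that stress hormone. Its log2 signals were 5.88, 6.41 and 6.06 in VISUAL, 6.90, 6.71 and 6.83 in CC-M and 6.73, 7.15 and 6.81 in CC-S. No induced array reached down to the highest VISUAL array, replicate 4. UGT71C5 rose by 0.77 on the log2 scale in CC-S (adjusted p = 0.00975) and by 0.70 in CC-M (adjusted p = 0.0249). The CC-M call ended without any one of the CC-M arrays or VISUAL replicate 3 or 5, with adjusted p from 0.0583 to 0.0838.

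**Figure D2:**
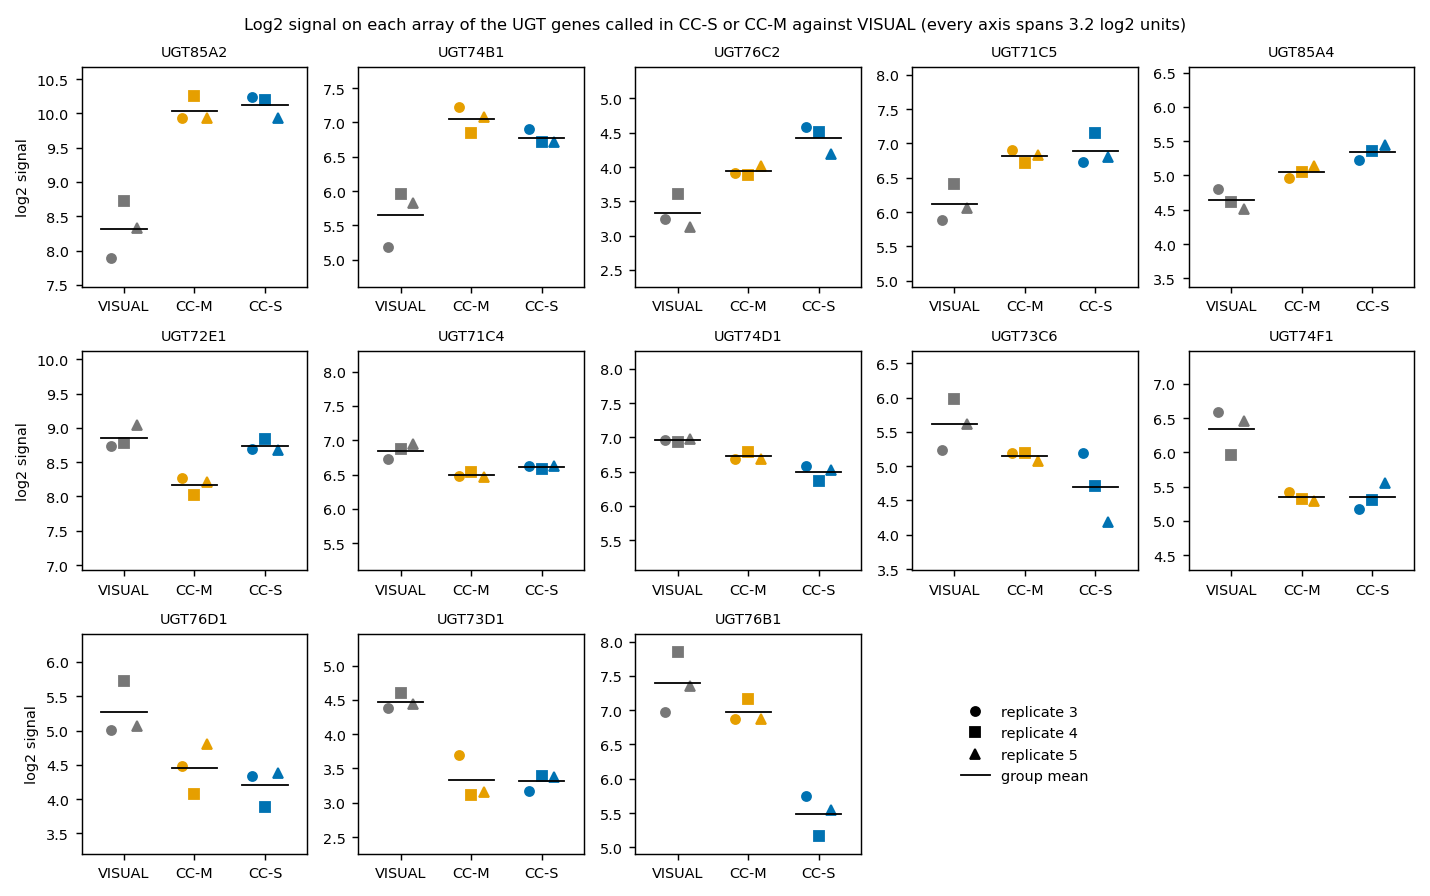
Log2 signal (vertical axis, each spanning 3.2 log2 units) on each of the 9 arrays for the 13 UGT genes called in CC-S or CC-M against VISUAL; symbols mark replicates 3, 4 and 5 and bars the group means. UGT76B1 has a mean of 6.97 ± 0.17 (SD, n = 3) in CC-M and 5.49 ± 0.29 in CC-S. For UGT85A2, UGT74B1, UGT71C5, UGT74F1 and UGT73D1 the mean of CC-S minus that of CC-M runs from -0.28 to 0.08, with no call.

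UGT76B1 glucosylates salicylic acid, isoleucic acid and N-hydroxypipecolic acid, all linked to plant immunity. Its log2 signals were 6.98, 7.84 and 7.35 in VISUAL, 6.88, 7.17 and 6.88 in CC-M and 5.75, 5.17 and 5.54 in CC-S. The CC-S arrays lay more than 1 log2 unit below every other array, whereas CC-M and VISUAL overlapped through CC-M replicate 4 and VISUAL replicate 3. UGT76B1 fell by 1.90 on the log2 scale in CC-S (SE 0.23, adjusted p = 0.000695), and its change of -0.42 in CC-M was not called (adjusted p = 0.32). UGT74F1 makes the glucoside of salicylic acid. Log2 signals of UGT74F1 were 6.59, 5.96 and 6.46 in VISUAL, 5.43, 5.32 and 5.28 in CC-M and 5.17, 5.31 and 5.55 in CC-S. Both induced groups lay below VISUAL with no overlap. UGT74F1 fell 1.99-fold in CC-S (adjusted p = 0.00457) and 1.99-fold in CC-M (adjusted p = 0.0084).

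UGT76D1 glucosylates dihydroxybenzoic acids, which are breakdown products of salicylic acid. Its log2 signals were 5.01, 5.72 and 5.07 in VISUAL, 4.49, 4.08 and 4.80 in CC-M and 4.33, 3.89 and 4.38 in CC-S. VISUAL lay above both induced groups, which overlapped each other. UGT76D1 fell by 1.07 in CC-S (adjusted p = 0.0191, and 0.073 without CC-S replicate 4), and its change in CC-M was -0.81 (adjusted p = 0.0799). UGT71C3, which acts on methyl salicylate, was the fourth measured gene listed for salicylic acid and related benzoates, and its log2 changes were 0.05 and -0.01 (lowest adjusted p 0.823). Of these 4 genes 3 fell in CC-S, where 10% of all genes fell, and 1, UGT74F1, fell in CC-M, where 5.66% did. The list was chosen with earlier results of these data known, so these counts do not test it. Genes of the same list with no single-gene probe set, UGT74F2 and UGT75B1 among them, were not analysed here.

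UGT73D1 had log2 signals of 4.38, 4.60 and 4.44 in VISUAL, 3.69, 3.12 and 3.16 in CC-M and 3.18, 3.39 and 3.38 in CC-S. The induced arrays were all below VISUAL, and UGT73D1 fell by 1.16 in CC-S (adjusted p = 0.00244) and 1.15 in CC-M (adjusted p = 0.0048). UGT73C6 acts on brassinosteroids and on flavonols. For UGT73C6 the log2 signals were 5.23, 5.98 and 5.61 in VISUAL, 5.19, 5.19 and 5.08 in CC-M and 5.19, 4.71 and 4.18 in CC-S. Its CC-S arrays spread more widely than those of CC-M and reached the CC-M level in replicate 3. UGT73C6 fell by 0.92 in CC-S (adjusted p = 0.0412), a call that ended when any CC-M array was left out, or replicate 4 or 5 of either other group (adjusted p 0.0618 to 0.118), and in a fit of the CC-S and VISUAL arrays alone (0.0993). The change in CC-M was -0.46 and was not called.

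UGT74D1 glucosylates auxin and its oxidised form. Its log2 signals were 6.97, 6.93 and 6.97 in VISUAL, 6.69, 6.78 and 6.69 in CC-M and 6.59, 6.36 and 6.53 in CC-S. The 3 groups were separate, highest in VISUAL and lowest in CC-S. UGT74D1 fell by 0.47 in CC-S, the smallest change among the 11 calls (adjusted p = 0.00585), and had a log2 change of -0.23 in CC-M (adjusted p = 0.131).

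In CC-M alone, UGT72E1 and UGT71C4 were called. UGT72E1 glucosylates coniferyl and sinapyl aldehydes, which lie on the path to lignin. Log2 signals of UGT72E1 were 8.74, 8.78 and 9.04 in VISUAL, 8.27, 8.02 and 8.21 in CC-M and 8.70, 8.84 and 8.68 in CC-S. The CC-M arrays lay below those of both other groups, and CC-S and VISUAL overlapped. UGT72E1 fell by 0.68 in CC-M (adjusted p = 0.00448) and had a log2 change of -0.11 in CC-S (adjusted p = 0.551). UGT71C4 had log2 signals of 6.72, 6.88 and 6.95 in VISUAL, 6.48, 6.54 and 6.46 in CC-M and 6.62, 6.59 and 6.62 in CC-S. The groups were separate within a narrow range, CC-M lowest and VISUAL highest. UGT71C4 fell by 0.35 in CC-M (adjusted p = 0.0303), and the call ended without CC-S replicate 4, any CC-M replicate, or VISUAL replicate 4 or 5 (adjusted p 0.0534 to 0.0961), and in a fit of the CC-M and VISUAL arrays alone (0.0763). In CC-S its change was -0.24, called without VISUAL replicate 3 (adjusted p = 0.0397) and under median centring of the arrays (0.0407).

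Setting CC-S directly against CC-M asks which UGT genes depend on the strength of induction. None of the 46 was called by limma, where 0.0181% of all genes and 0.0208% of all probe sets were. For 12 the arrays did not overlap (26.1%, with 18.2% over all genes). An unadjusted limma p under 0.05 was reached by 8, and the share of all genes that reached it was not computed. UGT76B1 came closest, with CC-S lower by 1.49 (95% interval -2.01 to -0.97, adjusted p = 0.0532). It was called with weighted arrays (0.02), without the dimmest 40% of probe sets (0.0314) and with adjustment over single-gene probe sets (0.0488). UGT72E1 was higher in CC-S by 0.57 (95% interval 0.33 to 0.81, adjusted p = 0.0752), and was called with weighted arrays (0.0282) and without the dimmest probe sets (0.0429). The difference of UGT76E12 was -1.62 with an SE of 0.47 (adjusted p = 0.186), that of UGT76E11 was -0.95 and that of UGT76C2 was 0.49, none of them called. A second, dimmer probe set of UGT76E12 went the other way between CC-S and CC-M, at 0.21 (limma adjusted p = 0.611).

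The 5 genes called in both inductions had small differences between CC-S and CC-M. The difference was 0.08 for UGT85A2 (95% interval -0.37 to 0.53) and 0.08 for UGT71C5 (95% interval -0.29 to 0.44). For UGT74F1 it was 0.00, with a 95% interval of -0.40 to 0.40, and UGT73D1 gave -0.01, with one of -0.41 to 0.40. UGT74B1 differed by -0.28 (95% interval -0.73 to 0.17). These intervals do not show that the levels are equal, but they bound a difference in UGT85A2 well below its change of 1.72 from VISUAL to CC-M. The comparisons of CC-S and CC-M with VISUAL share the 3 VISUAL arrays.

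The families are small, and over all genes 20.2% were called in CC-S and 12% in CC-M. By number family, UGT85 had 5 measured genes, with 2 higher in CC-S and 1 in CC-M. UGT74 had 3, all called in CC-S in different directions: UGT74B1 higher, UGT74D1 and UGT74F1 lower. UGT76 had 8 genes, of which UGT76C2 was higher and UGT76B1 and UGT76D1 were lower in CC-S, while 0 were called in CC-M (2 by an unadjusted p under 0.05). UGT73 without UGT73B had 5, with 2 lower in CC-S and 1 in CC-M. UGT71 had 10, the most of any family, with UGT71C5 the sole call in CC-S and UGT71C5 and UGT71C4 called in CC-M. UGT72 had 4, with UGT72E1 lower in CC-M. UGT78 had 3 genes, UGT84 had 4, and UGT80, UGT87, UGT88 and UGT89 had 1 each, none of them called in any comparison.

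UGT78 enzymes attach sugars to flavonols and anthocyanidins. UGT78D2, the glucosyltransferase for the 3 position, had log2 signals from 3.42 to 3.58 in VISUAL, 2.80 to 3.26 in CC-M and 2.92 to 3.35 in CC-S. Its VISUAL arrays lay above all induced arrays, but the changes of -0.43 and -0.50 were not called (adjusted p = 0.137 and 0.113). UGT78D1 and UGT78D3, a rhamnosyl- and an arabinosyltransferase, had changes of -0.02 and -0.17 in CC-S. Of the UGT84 family, UGT84A3 makes glucose esters of hydroxycinnamic acids and UGT84B1 and UGT84B2 act on auxin. The changes of these genes and of UGT84A4 lay between -0.11 and 0.24 in CC-S. UGT84A3 had 0.38 in CC-M (adjusted p = 0.429), called without VISUAL replicate 4 (0.0328). UGT72E2 and UGT72E3, the monolignol glucosyltransferases beside UGT72E1, had changes of 0.23 and 0.25 in CC-S and were dim, with only 3.94% and 4.19% of probe sets at or below their mean signal.

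UGT87A2, known for an effect on flowering time, had a CC-S mean of 12.05 ± 0.05 and a VISUAL mean of 12.23 ± 0.09. Its change of -0.18 (adjusted p = 0.0719) was called without VISUAL replicate 3 (0.0438) and under median centring of the arrays (0.0387). UGT80B1, a sterol glucosyltransferase, had log2 changes of -0.18 and -0.20, with no call. Abscisic acid genes other than UGT71C5 were UGT71B6 at -0.34 and -0.54 in CC-S and CC-M and UGT71B8 at -0.12 and -0.10. UGT71B6 was called lower in CC-M under median centring (adjusted p = 0.0456) and quantile normalization (0.0442). Over all genes 20.2% were called in CC-S and 12% in CC-M, so counts in substrate groups this small are not in themselves results about a substrate. Of 3 measured abscisic acid genes 1, UGT71C5, rose in each induction. Of 3 cytokinin genes UGT76C2 alone was called, and UGT73C1, which can act on cytokinins, had -0.29 and -0.21. Of 3 auxin genes UGT74D1 fell in CC-S, and UGT84B1 and UGT84B2 had -0.11 and -0.06. Of 4 genes listed for monolignols and hydroxycinnamates only UGT72E1 was called, lower in CC-M. Of 4 listed for flavonoids none was called, and UGT84A3 was counted in that list and not with the hydroxycinnamate genes. For 1 brassinosteroid gene, UGT73C6, and 1 glucosinolate gene, UGT74B1, the calls are those above.

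In all, 33 of the 46 genes were called in neither comparison with VISUAL. Among them 30 had a log2 change under 0.5 in size in CC-S, and 28 in CC-M. The widest were UGT76E12 at -1.30 in CC-S and UGT85A7 at 0.86 in CC-M (adjusted p = 0.0972). UGT71C2, at 0.50 in CC-S, reached an adjusted p of 0.0435 once CC-S replicate 3 was left out, and UGT71D1, at -0.55 in CC-M, without VISUAL replicate 4 (0.044). UGT71B1 and UGT71B5 had changes of -0.12 and -0.02 in CC-S, UGT71C1 had 0.06 in CC-M, and UGT72B3, UGT88A1 and UGT89B1 had CC-S changes of 0.11, 0.12 and 0.17. UGT73C2 stood at 0.06, UGT76E1 at 0.39 and UGT76E2 at 0.09. Of the 46 genes, 11 had a mean signal among the lowest 20% of probe sets, and none of these 11 was called.

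Neighbouring genes did not always share a call. By the reference gene table, 30 of the 46 genes lie in 12 runs, in which the next measured UGT gene is at most 5 protein-coding genes away, and 6 of the 13 called genes are in such runs. UGT71C5, UGT71C4 and UGT71C3 follow each other directly on the chromosome. In CC-M, UGT71C5 rose by 0.70, UGT71C4 fell by 0.35 and UGT71C3 had a change of -0.01. UGT85A7, UGT85A2, UGT85A5 and UGT85A3 also form one run. UGT85A2 was the one called, while UGT85A7, UGT85A5 and UGT85A3 had 0.23, 0.22 and 0.13 in CC-S and 0.86, 0.27 and -0.03 in CC-M. UGT76C2 rose in CC-S and its neighbour UGT76C1, also a cytokinin N-glucosyltransferase, had 0.61 with an SE of 0.24 (adjusted p = 0.122). UGT73D1 fell by 1.16 and UGT73C7 beside it had -0.10. Whether neighbours differ in their changes was not tested, and how far probes of such related genes read each other was not analysed here.

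On the probe sets used, UGT76E12 and UGT76E11 shared the order of the VISUAL and of the CC-M arrays, though not that of the CC-S arrays. Log2 signals of UGT76E12 were 5.46, 7.28 and 6.17 in VISUAL, 5.91, 7.37 and 6.60 in CC-M and 4.96, 4.94 and 5.11 in CC-S, and those of UGT76E11 were 6.02, 7.60 and 6.96 in VISUAL, 7.23, 7.63 and 7.50 in CC-M and 6.71, 6.37 and 6.43 in CC-S. In both genes VISUAL ran from replicate 3, the lowest, to replicate 4, the highest, and CC-M was ordered the same way, while the CC-S arrays lay within 0.4 log2 units of each other. The CC-S change was -1.30 for UGT76E12 (adjusted p = 0.0925) and -0.36 for UGT76E11 (adjusted p = 0.554). Without VISUAL replicate 3 both were called lower (adjusted p = 0.0368 and 0.0431). A second, dimmer probe set of UGT76E12 did not show the shared order, with 5.31, 5.13 and 4.86 in VISUAL.

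**Figure D3:**
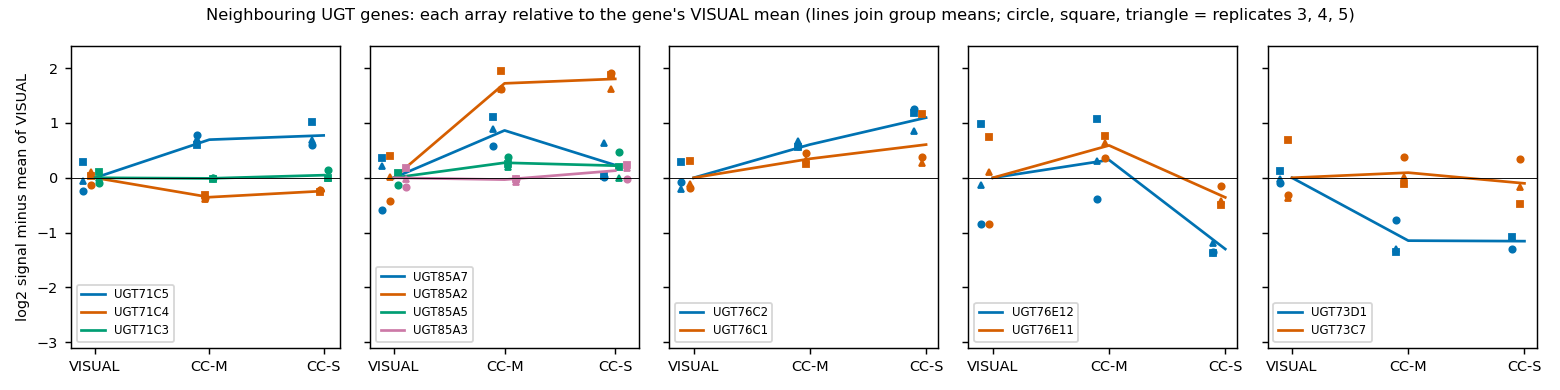
Log2 signal relative to each gene's VISUAL mean (vertical axis) in the 3 groups for 5 runs of neighbouring UGT genes, with points for the arrays and lines through the group means. UGT71C5 and UGT71C4 part in opposite directions, UGT85A2 lies above its neighbours in CC-M and CC-S, and UGT76E12 and UGT76E11 share the order of the VISUAL and CC-M arrays.

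For 5 genes a second single-gene probe set exists. That of UGT85A4 rose by 0.93 in CC-S (adjusted p = 0.0142) and that of UGT73C6 fell by 1.23 (adjusted p = 0.0128), the same directions as the brighter ones. The second probe set of UGT74D1 had -0.71 (adjusted p = 0.113). For UGT76E12 the pair disagreed, with 0.43 on the dimmer and -1.30 on the brighter probe set in CC-S, and for UGT71B6 with 0.19 and -0.34, none called. Within 2 blocks per chromosome the probe set numbers follow the gene order (99.8% of neighbours in order), and both probe sets of a pair lie in different blocks. UGT73C1 and UGT73C2 and the dimmer probe set of UGT73C6 share a block, and the brighter one used for UGT73C6 lies in the other, as UGT71C3 does with respect to UGT71C5 and UGT71C4. The sources used here do not say which strand a probe set reads, so a gene and an antisense transcript cannot be told apart.

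Glycosylation draws on UDP-sugars and on the pathways that make the acceptors, and lists of such genes were read beside the UGT genes. Few of their genes have a single-gene probe set. Of 37 UDP-sugar supply genes only USP, which makes UDP-glucose and other UDP-sugars, was measured. USP fell in both inductions, from 8.70 ± 0.23 in VISUAL to 7.78 ± 0.21 in CC-M and 7.64 ± 0.10 in CC-S (adjusted p = 0.00466 and 0.00129). Of 23 phenylpropanoid and monolignol genes 3 were measured, and CCR2, a cinnamoyl-CoA reductase, rose 4.51-fold in CC-S and 3.14-fold in CC-M (adjusted p = 0.000242 and 0.00182). The acyltransferase gene HCT had -0.17 and -0.01. Of 17 genes of auxin conjugation and oxidation 5 were measured. GH3.5, listed as WES1 and linking auxin to amino acids, rose from 7.02 ± 0.35 in VISUAL to 9.31 ± 0.25 in CC-M and 9.54 ± 0.23 in CC-S (adjusted p = 0.00031 and 9.95e-05), and GH3.1 fell by 1.16 in CC-S (adjusted p = 0.00879). In CC-M GH3.1 had -0.70, called without VISUAL replicate 3 (adjusted p = 0.0429).

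None of the measured flavonoid genes (2 of 20), glucosinolate genes (2 of 24) or salicylic acid genes (1 of 12) was called. Among the flavonoid genes the smallest p in CC-S was that of CHIL, at -0.13 (adjusted p = 0.645), and in CC-M that of DFR, at 0.20 (adjusted p = 0.659). In the glucosinolate list it was that of AOP3 in CC-S, at 0.20 (adjusted p = 0.503), and of GSTU20 in CC-M, at -0.65 (adjusted p = 0.193). BSMT1, a salicylic acid methyltransferase, had -0.13 in CC-S (adjusted p = 0.579). The lists of cytokinin metabolism (26 genes) and brassinosteroid inactivation (5 genes) had no measured gene, so UGT76C2 and UGT73C6 could not be set beside them. Of 15 genes of abscisic acid metabolism only BGLU33 was measured.

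Beta-glucosidases, some of which remove the sugars that UGT enzymes add, had 22 measured genes of 40. In CC-S 4 fell and none rose, and in CC-M 3 fell and 1 rose. The called share was 18.2% in each, beside the 20.2% and 12% over all genes, with a median log2 change of -0.07 in CC-S and 0.01 in CC-M. BGLU28, which can hydrolyse glucosinolates, fell from 11.47 ± 0.23 in VISUAL to 9.23 ± 0.19 in CC-M and 7.37 ± 1.18 in CC-S (adjusted p = 0.0193 and 0.000642). Its CC-M call ended without any CC-M replicate or VISUAL replicate 3 or 5 (adjusted p 0.0562 to 0.0652). BGLU45, which acts on monolignol glucosides, fell by 2.05 in CC-S (adjusted p = 0.0153, and up to 0.0587 without CC-S replicate 3 or 4) and had -0.25 in CC-M. BGLU25 fell by 0.95 and 0.61 (adjusted p = 0.000421 and 0.00675).

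BGLU33, which frees abscisic acid from its glucose ester, fell by 1.15 in CC-S (adjusted p = 0.0378). That call ended without CC-S replicate 3 or 4, any CC-M replicate or VISUAL replicate 3 or 5 (adjusted p 0.0564 to 0.124). In CC-M BGLU16 rose by 1.04 (adjusted p = 0.0352) and BGLU15, which acts on flavonol glycosides, fell by 0.75 (adjusted p = 0.0367). The call of BGLU16 ended without any CC-S replicate, CC-M replicate 4 or 5, or VISUAL replicate 3 or 4 (adjusted p 0.052 to 0.103), and that of BGLU15 without replicate 3 of any group, CC-S replicate 4, or replicate 5 of CC-M or VISUAL (adjusted p 0.0565 to 0.117). CC-S and CC-M differed by no call among the listed genes. The smallest adjusted p values there were for BGLU45, at -1.80 (adjusted p = 0.146), and BGLU28, at -1.85 (adjusted p = 0.147). CC-S replicate 5 lay above the other CC-S arrays of BGLU28, and without it that difference was called (adjusted p = 0.00986), as it was with weighted arrays (0.0445).

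**Figure D4:**
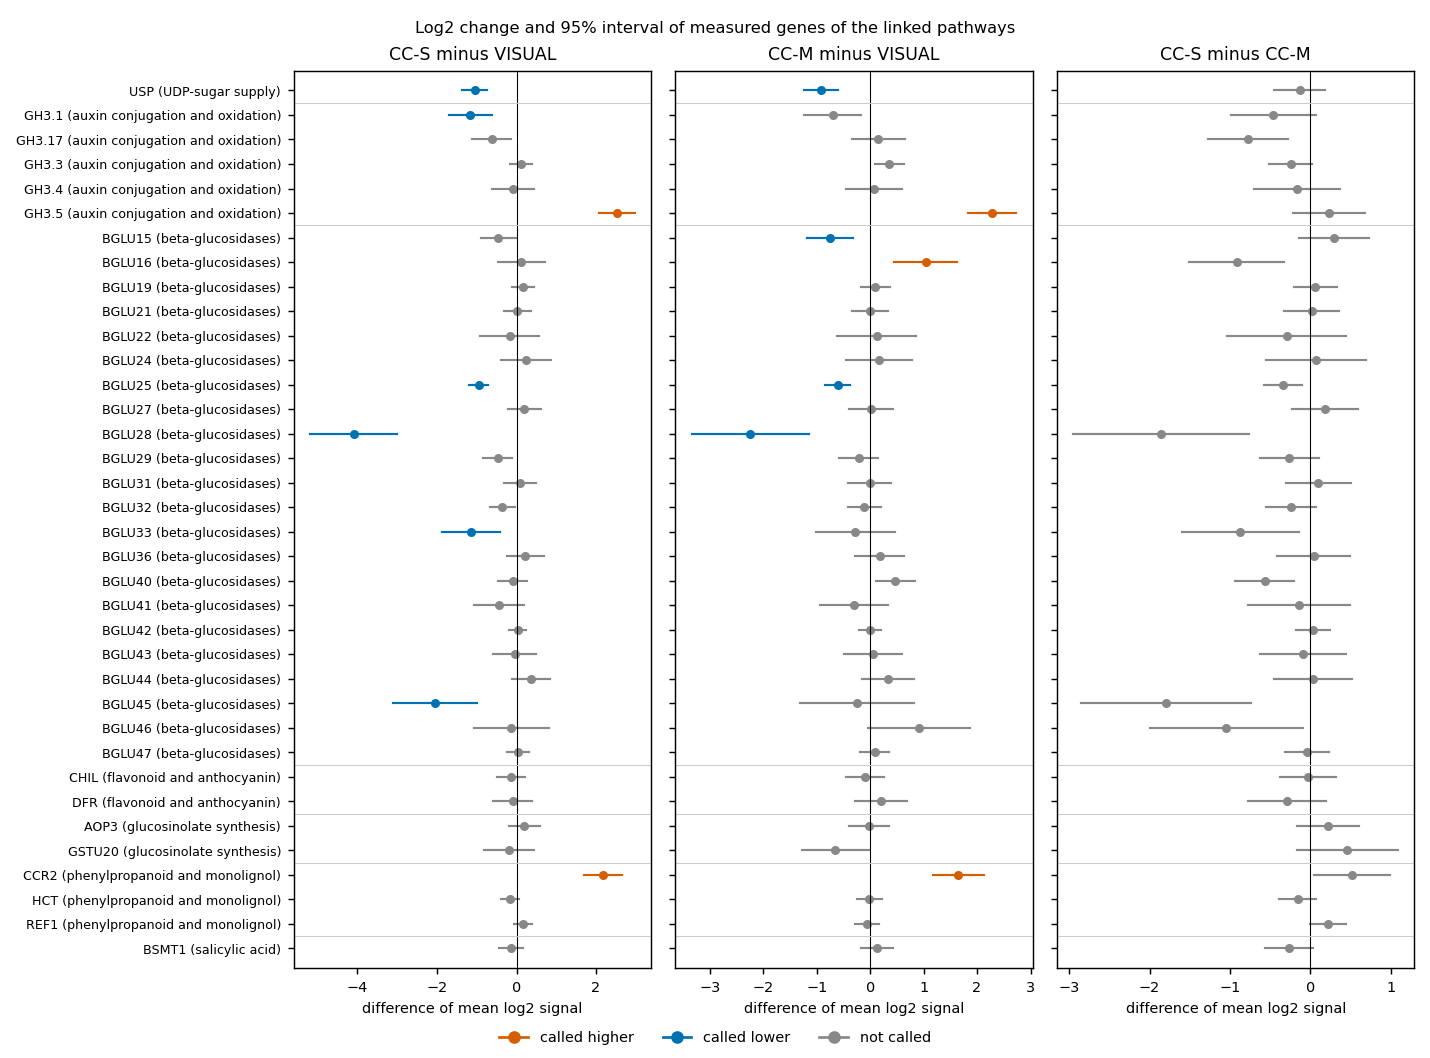
Log2 change (horizontal axis, scaled separately in each panel) with 95% intervals of the measured genes of the linked pathways for the 3 comparisons; colour marks the call and the list stands in brackets. GH3.5 and CCR2 lie farthest to the right and BGLU28 farthest to the left in CC-S against VISUAL; BGLU33 also belongs to the abscisic acid list.

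Of the UGT73B genes, which were left out of the set, 5 were measured. In CC-S 4 of them fell, where 10% of all genes did, and in CC-M 4 fell, where 5.66% did, with a median log2 change of -0.84 and -1.04. The other gene, UGT73B4, had positive changes of 0.56 in CC-S (adjusted p = 0.0544) and 0.35 in CC-M (adjusted p = 0.271), neither of them called. In the rest of the UGT73 family 2 of 5 fell in CC-S and 1 in CC-M. No test of the difference between these gene groups was made.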

How the data were processed

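Log2 signals of 9 one-colour arrays (3 groups of 3) were used as the authors deposited them, in 1 table of 38408 probe sets with values from 0.0698 to 13.9. Per the submitters' processing notes the tool was Affymetrix Expression Console. The sources used here do not give the summary method, the genome build or the strand that probe sets read. In the probe set names used here, 16722 probe sets name a single gene, 759 name several genes and 20927 carry no gene name. A gene given as not measured may therefore still be read by a probe set without a name. Names and neighbourhood came from RefSeq's gene table (TAIR10.1).

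All probe sets were fitted in limma 3.58.1 (R 4.3.3) with lmFit, a mean per group and eBayes with an intensity trend. The fit was 2-sided with Benjamini-Hochberg adjustment over all probe sets, and it was tested on simulated data. Tables were made with Python 3.11.15 and pandas 2.3.3. The number of arrays limits the precision. Values on every array are given for each called UGT gene, and pathway lists are given by their called genes or the gene with the smallest p. The UGT set, gene lists and tests were chosen with earlier results of these data known. Replicate numbers were not used as a block in the fit. Alternatives covered normalization, trend, array weights, a filter on dim probe sets, the probe sets used, the adjustment and each array left out.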

Additional observations from a re-analysis of the deposited data

Results flagged for a closer look

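The counts of called genes read each gene by 1 probe set, and the dimmer probe sets of UGT85A4 and UGT73C6 lay outside them. That of UGT73C6 fell by 1.23 in CC-S (limma adjusted p = 0.0128), as the brighter one did. For the dimmer probe set of UGT85A4 the CC-S log2 signal was 0.93 above VISUAL (limma adjusted p = 0.0142). This is a signal in values that the count of called genes did not use, and the same direction as the 0.69 of the brighter probe set.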

How the results depend on the processing

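Of the settings tried, none turned the direction of a called UGT gene. The count of called UGT genes, 11 in CC-S and 7 in CC-M against VISUAL, ranged from 9 to 15 and from 5 to 9 when 1 array was left out, and stayed at 0 between CC-S and CC-M. Asking for a change beyond 1.5-fold left 2 and 1. Between CC-S and CC-M, weighted arrays gave 2, leaving out the dimmest 40% of probe sets gave 2, and adjustment over single-gene probe sets gave 1, UGT76B1. Blocking on the replicate number gave counts of 12, 6 and 0. Under this block UGT73C6 lost its call in CC-S (adjusted p = 0.0572) and UGT71C4 in CC-M (0.0515), while UGT76E12 (0.0344) and UGT87A2 (0.033) gained one in CC-S. No label says what the replicate numbers share. Correlations between arrays of different groups were taken on each array's deviations from its group mean. For same-numbered arrays they ran from -0.03 to 0.12 and 2 of 9 pairs were over 0.1, so the numbers were not taken as pairs. In these deviations 6 of 9 arrays correlated best with an array of their own number, which is a hint of pairing from the data. Median centring shifted the median of all changes by -0.07 in both comparisons with VISUAL and gave 13 and 8 calls, and quantile normalization gave 11 and 8. Fits of only the 2 groups compared ended the calls of BGLU33 in CC-S (0.0938) and of BGLU15 (0.0845) and BGLU16 (0.0863) in CC-M. Over the 20 UGT genes called in any setting and the 3 comparisons, 1071 results kept their call status, 22 gained a call and 38 lost one. For changes in counts and calls other than those made by fewer probe sets, fewer arrays or a stricter question, the cause was not tested. Genes near the floor of the signal range, 11 of 46, have little room to show a fall.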

Other observations

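For 20 of the 46 UGT genes at least 2 of the 9 arrays held exactly the same deposited value, and for 11 genes at least 3 did, UGT85A2 and UGT73C6 among them. Over all probe sets 33.1% had such a tie of 2 or more arrays and 16.6% of 3 or more.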
